A study of Mus musculus with 28 samples.

Results

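Broad H3K4me3 peaks of WT mouse embryonic stem cells (mESCs) are described here, chosen by their measured width. They were the autosomal peaks of the WT H3K4me3 list with a width of 5000 bp or more, and there were 1125 of them among 33695 autosomal peaks and 34823 peaks on all chromosomes. The 32570 autosomal peaks under 5000 bp are called narrower. H3K4me3 (trimethylated lysine 4 of histone H3) was profiled by ChIP-seq, in which antibody-bound chromatin is sequenced and enriched regions are called as peaks. The cells were of the HATX line, haploid mESCs that carry a doxycycline-inducible Xist transgene, and were grown in serum and LIF on gelatin. They were either WT or Spen KO clone 2, a single clone in which most of Spen, a gene for an RNA-binding repressor, is deleted. The transgene is shared by both genotypes, and the labels name no doxycycline treatment for these libraries. The series held 28 samples, of which 16 were ChIP libraries (2 per genotype for each of H3K4me3, H3K27Ac, H3K9me3 and Oct4) and 12 were inputs.

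H3K4me3 marks the promoters of active genes and of many genes that are held ready for use, and most often lies just downstream of the transcription start site (TSS) at CpG islands. Broad H3K4me3 domains are known for covering genes that define a cell type, such as pluripotency genes in mESCs, and genes with high and steady transcription. H3K27Ac marks active promoters and enhancers, H3K9me3 marks silent heterochromatin, and Oct4 is the transcription factor at the core of the pluripotency network.

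Several facts of the series touch these results. Each histone mark had 1 list per genotype, which for H3K4me3 and H3K27Ac combined libraries described as technical replicates and for H3K9me3 does not state how libraries were used, so a histone comparison has no replicate test, and the intervals below cover counting error only. The depth of the libraries is unknown. The Spen KO H3K4me3 list was shorter, with 31091 peaks of a median width of 1324 bp against 34823 peaks of 1458 bp in WT, and the second Spen KO library had a median score of 18.6 where the other 3 libraries had 23.4 to 24.9. Among the Oct4 libraries, WT replicate 1 had the fewest peaks (1806) and WT replicate 2 the most (4111), with 2617 and 3028 in those of Spen KO. At Spen itself, the peak at the TSS was 3910 bp wide in WT against 9011 bp in Spen KO, and since the position of the deletion was not available here this does not check the label. By gene-level TSS, 5 of 11 embryonic stem cell markers had a broad peak (Lin28a, Pou5f1, Tdgf1, Klf4 and Sox2), each with H3K27Ac. All 10 markers of this list with any peak had H3K27Ac. Esrrb and Sall4, also on that list, had broad peaks at another transcript start and are not among the 5. None of the 8 fibroblast and 4 liver markers had a broad peak.

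The widths that defined the group ranged from 5000 to 20357 bp with a median of 5899 bp, while narrower peaks had a median of 1425 bp. Of the broad peaks, 147 were at least 8000 bp and 49 at least 10000 bp wide. They made up 3.34% of the autosomal peaks and 11.6% of their bases (7.31 Mb of broad peaks beside 55.7 Mb of narrower peaks). The median peak score of the broad peaks was 40.7 in WT replicate 1 and 43.5 in WT replicate 2, and their median score percentile was 81.2 against 48.7 for narrower peaks. Members just inside the limit were at Zdhhc12 (5000 bp) and Git1 (5002 bp). The nearest peaks outside it were at Trp73 and Wdr8 (4999 bp), Hsf4 (4998 bp) and Sh3bgrl3 (4998 bp). Whether the deposited starts count from 0 or 1 is not stated, so a width may be 1 bp too large, which concerns 1 member, the peak at Zdhhc12. On the X chromosome, which the rule leaves out, 4 of 1015 peaks (0.394%) had this width.

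The share of autosomal peaks that were broad ran from 1.54% on chromosome 13 (23 of 1495) to 5.30% on chromosome 17 (91 of 1716). Some broad peaks were neighbours, with 23 pairs at most 1000 bp apart and 78 pairs at most 10000 bp apart.

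Sequences are shown for 4 of the widest broad peaks with exactly 1 protein-coding TSS, where the printed bases overlap no annotated exon. They are the 250 bases before the TSS in the direction of the gene (NCBIM37, the mm9 build), with CpG dinucleotides, the bases that make up CpG islands, in capitals. They lie at chr4:140856905-140857154 (+ strand, Epha2), chr8:28370549-28370798 (+ strand, Eif4ebp1), chr12:103943080-103943329 (- strand, Itpk1) and chr10:80040042-80040291 (- strand, Klf16). The windows lie inside the peaks except at Epha2, where the peak began within the window and held 128 of its bases.
Epha2: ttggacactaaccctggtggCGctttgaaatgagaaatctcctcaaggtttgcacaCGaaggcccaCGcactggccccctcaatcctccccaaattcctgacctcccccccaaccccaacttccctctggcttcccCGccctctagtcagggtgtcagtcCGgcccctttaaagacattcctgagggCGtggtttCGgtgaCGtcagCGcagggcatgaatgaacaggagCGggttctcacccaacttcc
Eif4ebp1: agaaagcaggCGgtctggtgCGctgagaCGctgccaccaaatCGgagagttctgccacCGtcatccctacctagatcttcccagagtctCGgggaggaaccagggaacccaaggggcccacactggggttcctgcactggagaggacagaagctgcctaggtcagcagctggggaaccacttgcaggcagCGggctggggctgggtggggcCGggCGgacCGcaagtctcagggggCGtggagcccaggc
Itpk1: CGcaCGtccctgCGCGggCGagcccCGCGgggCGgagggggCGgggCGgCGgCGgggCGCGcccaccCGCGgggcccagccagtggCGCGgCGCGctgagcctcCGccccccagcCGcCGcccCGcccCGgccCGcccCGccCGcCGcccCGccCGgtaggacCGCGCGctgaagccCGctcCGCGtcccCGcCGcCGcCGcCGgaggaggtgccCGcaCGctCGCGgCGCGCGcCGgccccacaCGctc
Klf16: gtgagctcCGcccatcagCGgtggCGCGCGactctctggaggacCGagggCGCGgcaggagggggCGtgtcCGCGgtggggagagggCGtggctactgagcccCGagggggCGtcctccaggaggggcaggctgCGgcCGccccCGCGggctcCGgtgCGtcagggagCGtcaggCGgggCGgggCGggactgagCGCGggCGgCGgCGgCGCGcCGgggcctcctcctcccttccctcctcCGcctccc

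The windows of Itpk1, an inositol phosphate kinase, and Klf16, a zinc finger factor that binds GC-rich DNA, held 51 and 33 CpG dinucleotides at 88.4% and 79.6% G+C. The windows of Epha2, an ephrin receptor tyrosine kinase, and Eif4ebp1, which holds back cap-dependent translation, held 10 and 11 CpG at 58.0% and 65.6% G+C. The wide peaks thus lay over start sites that differed several-fold in CpG number.

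The widest peak, chr8:126128563-126148919 (20357 bp), covered tandem copies of the 5S ribosomal RNA gene. The 51 annotated copies of this cluster followed each other at a median spacing of 1698 bp. In WT, 10 peaks lay over the cluster, 6 of them broad, and these 6 held 46 of the copies. In Spen KO, 36 peaks lay over it, of which 1 was 5000 bp or wider and the widest had 6684 bp. The summed width was 86380 bp for WT against 69471 bp for Spen KO, so the WT list had fewer and longer peaks over the cluster. Neither H3K27Ac peaks nor H3K9me3 domains of WT overlapped the copies. Reads from near-identical copies cannot be placed with certainty, the methods describe both an alignment of unique reads and one with multi-mapping reads placed at random, and which of them gave these lists is not stated, so the widths over this cluster are uncertain.

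The 12 widest peaks included 3 over the 5S copies and 9 elsewhere. A peak of 16909 bp lay over Phf17, which encodes a subunit of histone acetyltransferase complexes, and the Spen KO peak there was 21877 bp wide. The peak over Trim71, an RNA-binding repressor of early development, had 14958 bp in the WT list against 23623 bp in that of Spen KO, and 82.2% of its bases lay in H3K27Ac in WT. Esrrb, an orphan nuclear receptor of the pluripotency network, had a peak of 14582 bp with 92.4% of its bases in H3K27Ac, and a Spen KO peak of 11355 bp. Epha2 had widths of 14874 bp (WT) and 14182 bp (Spen KO). Its scores were 32.3 and 62.7 in the WT libraries, and those of the Spen KO libraries were 62.9 and 41.0. Eif4ebp1 had 14660 bp and 14800 bp, and the shared promoter of Dido1, a PHD finger protein, and 2310003C23Rik had 14935 bp and 14763 bp. Nat14 and Zfp628 shared a WT peak of 14484 bp where Spen KO had 4 peaks, the widest of 3409 bp. Jmjd8, Rhbdl1, Stub1 and Wdr24 lay together in a peak of 14296 bp with no WT H3K27Ac. The remaining peak was at 4933440N22Rik (14995 bp). Widths in Spen KO thus ranged from wider than WT at Phf17 and Trim71 to several short peaks at Nat14 and Zfp628.

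The comparison with narrower peaks first asked where broad peaks lie. A protein-coding TSS was within 1000 bp of 957 of the 1125 broad peaks (85.1%, Wilson 95% interval 82.9 to 87.0%), against 37.4% (36.8 to 37.9%) of narrower peaks and 38.9% of all autosomal peaks. The difference was 47.7 percentage points (Newcombe 95% interval 45.4 to 49.7) and had this direction on 19 of 19 autosomes. Broad peaks also had the higher scores, and against narrower peaks with a score of at least the lower quartile of the broad peaks the difference was 7.93 points (5.59 to 10.1). When only the central 1000 bp of each peak counted, it was 14.7 points (11.7 to 17.6). Here and below, this window reached beyond the peak at the 10902 peaks under 1000 bp.

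Broad peaks often reached several genes. There were 288 broad peaks (25.6%, 23.1 to 28.2%) with 2 or more TSSs inside, against 3.04% of narrower peaks, and 256 held TSSs on both strands. A whole protein-coding gene fitted into 175 of the broad peaks (15.6%) and into 1.40% of narrower peaks. A wider peak has more room for features of any kind, and the part of the width in these counts was not tested.

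Of the 168 broad peaks without a gene-level TSS nearby, 88 had another transcript start of a protein-coding gene within 1000 bp. The starts of lincRNAs lay at 11 and of miRNAs at 10 of the 168. No start of any gene type was annotated at 53, and 38 of these 53 lay in or over the body of a protein-coding gene, like the peak over Trim71.

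The 657 broad peaks with exactly 1 TSS inside showed how the mark spread around the start. They reached a median of 1536 bp (1426 to 1637 bp) before and 4386 bp (4247 to 4547 bp) after the TSS, against 678 bp and 1726 bp for the 9788 narrower peaks of this kind. The part after the TSS was the longer one in 88.1% (85.4 to 90.4%) of these broad peaks and in 88.9% (88.3 to 89.6%) of the narrower ones. Their median share of width after the TSS was 75.5% and 71.1%. The choice by width fixes that the reach of broad peaks is longer, so these distances describe the members, and the position relative to the TSS is what the rule did not use. The genes they marked had a median length of 14737 bp (12707 to 15877 bp) against 25535 bp (24874 to 26495 bp) at narrower peaks, and the peak covered a median of 33.2% of the gene against 6.41%, a contrast that holds the width used by the rule.

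**Figure D1:**
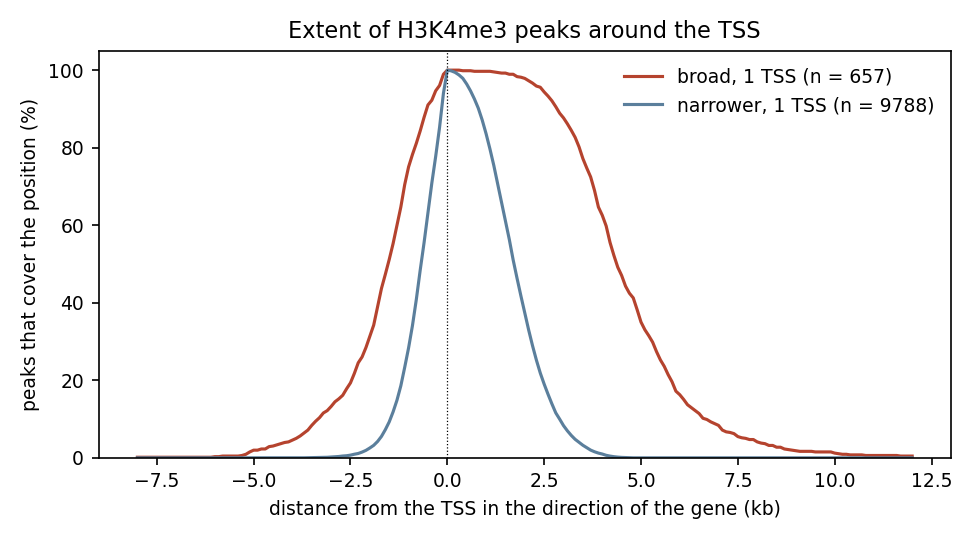
Share of peaks (y axis, %) that cover each position relative to the TSS (x axis, kb, positive into the gene), for the 657 broad and 9788 narrower WT peaks with exactly 1 protein-coding TSS inside. Both curves lean to the right, and the broad curve reaches a median of 4386 bp into the gene against 1726 bp.

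CpG content depended on where it was measured. A region counted as CpG-rich with a G+C content of at least 50% and an observed over expected CpG ratio of at least 0.6. The central 1000 bp met this in 327 broad peaks (29.1%, 26.5 to 31.8%), against 25.1% of narrower peaks and 25.3% of all autosomal peaks, a difference of 3.94 points (1.32 to 6.70). That direction held on 16 of 19 autosomes and turned to -17.5 points (-20.5 to -14.4) among peaks with a TSS within 1000 bp. The centre of a broad peak is not its TSS, as the distances above show. In the 1000 bp around the TSS of peaks with 1 TSS inside, CpG-rich sequence was found at 549 of 657 broad peaks (83.6%, 80.5 to 86.2%) and at 69.8% (68.9 to 70.7%) for narrower peaks. Broad peaks held a median of 1600 bp of CpG-rich 200 bp windows against 440 bp, but these were 26.3% of their bases against 30.4%.

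H3K27Ac was the mark that most often lay with broad H3K4me3. It overlapped 849 broad peaks in WT (75.5%, 72.9 to 77.9%), against 19.8% (19.3 to 20.2%) of narrower peaks and 21.6% of all autosomal peaks. The difference of 55.7 points (53.1 to 58.2) had this direction on 19 of 19 autosomes. It was 48.0 points (45.3 to 50.6) against narrower peaks of higher score, 52.1 points (49.2 to 54.9) among peaks with a TSS, and 39.1 points (36.2 to 42.0) for the central 1000 bp. In bases, H3K27Ac covered 38.2% of the broad and 14.7% of the narrower peaks. There were 369 broad peaks (32.8%) with 2 or more H3K27Ac peaks, against 2.17% of narrower ones.

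In Spen KO cells, H3K27Ac overlapped 800 of the same regions (71.1%, 68.4 to 73.7%), against 17.9% of narrower and 19.7% of all autosomal peaks. It was called in both genotypes at 760 broad peaks, in WT alone at 89 and in Spen KO alone at 40. Over all peaks, these were 67.6%, 7.91% and 3.56% of broad peaks, against 14.3%, 5.46% and 3.57% of narrower peaks. The shares with Spen KO alone over all peaks did not differ beyond counting error. However, a smaller share of broad than of narrower peaks lacked H3K27Ac in WT and could fall in this class. Of the peaks with WT H3K27Ac, 89 of 849 broad and 1777 of 6439 narrower ones lacked it in Spen KO. Of the broad peaks without it in WT, 40 of 276 (14.5%) had it in Spen KO. Of the 32570 narrower peaks, 6439 had it in WT, and 1164 of those without it in WT had it in Spen KO. The Spen KO H3K27Ac list was the shorter, with 11932 peaks against 13922, and its depth relative to WT is unknown.

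The 276 broad peaks without WT H3K27Ac had TSSs as often as the others (84.4% against 85.3%) and a similar median width (5706 bp against 6001 bp). Their centres were more often CpG-rich, at 37.3% against 26.4%. Their Spen KO peaks were narrower relative to WT, with a median ratio of 0.61 (0.56 to 0.64) against 0.77 (0.74 to 0.80) at the 849 with H3K27Ac. Their score percentile moved with this, at a median of 76.3 against 82.8, and its part in the difference was not tested.

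**Figure D2:**
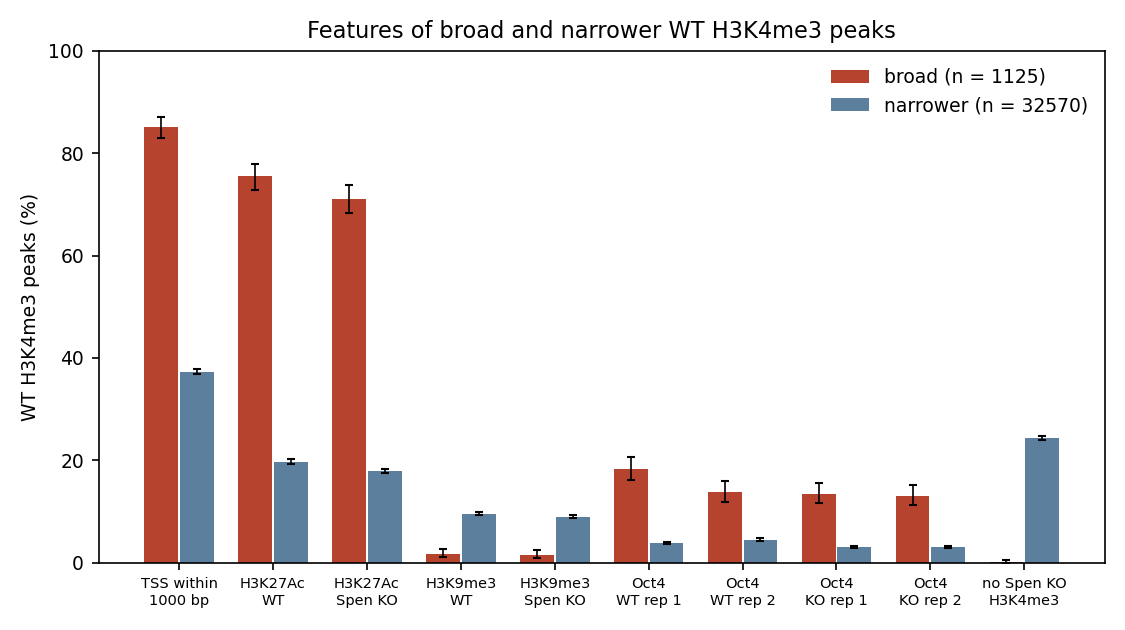
Share (y axis, %) of the 1125 broad and 32570 narrower autosomal WT H3K4me3 peaks that overlap each feature on the x axis, with Wilson 95% intervals as error bars. Broad peaks have the taller bars for TSS, H3K27Ac and all 4 Oct4 libraries, and the shorter bars for H3K9me3 and for absence of a Spen KO H3K4me3 peak.

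H3K9me3 rarely lay over broad peaks. WT domains overlapped 19 of them (1.69%, 1.08 to 2.62%), against 9.60% (9.28 to 9.92%) of narrower and 9.33% of all autosomal peaks. The difference of -7.91 points (-8.60 to -6.92) had this direction on 19 of 19 autosomes. Among peaks with a TSS within 1000 bp it was -0.76 points (-1.27 to 0.10), an interval that includes 0. By width class, WT H3K9me3 overlapped 14.1% of peaks under 1000 bp and 12.3% at 1000 to 1999 bp. At 3000 to 3999 bp the share was 1.85% and at 4000 to 4999 bp 1.54%, so a low share was not particular to broad peaks. In Spen KO, 18 broad peaks overlapped a domain (1.60%). Of the 19, 4 lay wholly within H3K9me3 in WT and 15 had under 30% of their bases in it.

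The H3K9me3 bases of the 4 fully covered members differed between the genotype lists at 3 of them. The peak over AY036118 at chr17:39979954-39985770 had 5817 bp of H3K9me3 in WT against 0 bp in Spen KO, with H3K4me3 widths of 5817 bp and 5832 bp. The peak at Gm13145 on chromosome 4 had 5057 bp of H3K9me3 in WT, 1703 bp in Spen KO, and it carried Oct4 in all 4 libraries. The peak at chr4:147011584-147016765 over 2610305D13Rik had 5182 bp and 2782 bp. The peak at chr8:53388934-53394277, over no annotated gene, was covered along its 5344 bp in both genotypes. With 1 H3K9me3 list per genotype, these differences have no replicate check. The lists also differed as a whole, with 53745 domains of a median 5400 bp in WT and 70268 of 3800 bp in Spen KO. The peaks at Gm13145 and over 2610305D13Rik had similar base content (29 CpG each, 41.0% and 40.9% G+C). Whether reads from these members can be placed uniquely was not tested, so these differences are uncertain.

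Oct4 peaks lay at a minority of broad peaks. WT replicate 1 had Oct4 at 206 broad peaks (18.3%, 16.2 to 20.7%), WT replicate 2 at 155 (13.8%, 11.9 to 15.9%), Spen KO replicate 1 at 152 (13.5%, 11.6 to 15.6%) and Spen KO replicate 2 at 147 (13.1%, 11.2 to 15.2%). The corresponding shares of narrower peaks were 3.87%, 4.53%, 3.00% and 3.02%, and those of all autosomal peaks 4.36%, 4.84%, 3.35% and 3.35%. Every library had the higher share at broad peaks. The mean difference was 11.1 points (SD 2.31, n = 4 libraries; exact two-sided sign-flip test, p = 0.125, the smallest p that 4 libraries allow), and 9.94 points without WT replicate 1.

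The 4 libraries came from a single WT line and a single Spen KO clone, and whether they were separate cultures is not stated. A wider peak has more room for an Oct4 overlap, so the test cannot tell Oct4 apart from width. The size of the difference depended on how much of each peak was read. For the central 1000 bp of each peak it was 0.79 points. Per Mb of H3K4me3 peak, the broad peaks held 29.5, 27.8, 25.3 and 25.8 Oct4 overlaps in the 4 libraries in the same order, against 23.0, 30.2, 19.9 and 19.7 for narrower peaks. The density was higher in broad peaks in 3 libraries and lower in WT replicate 2.

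Between genotypes, a mean of 16.0% ± 3.21 (SD, n = 2) of broad peaks had Oct4 in the WT libraries, and 13.3% ± 0.31 (SD, n = 2) had it in those of Spen KO. The difference of -2.76 points (exact permutation test of 2 against 2 libraries, two-sided, p = 0.333, the smallest p this design allows) became -0.49 points without WT replicate 1 and -5.02 points without WT replicate 2, so it was not larger than the spread between the WT libraries.

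Oct4 was found in no library at 699 of the 1125 broad peaks, in 1 library at 281, and in all 4 libraries at 19. At least 1 library had it at 37.9% of broad and 10.2% of narrower peaks, and all 4 had it at 1.69% and 0.279%. Of these 19, 18 had H3K27Ac in WT and 17 in Spen KO, and 9 had no protein-coding TSS within 1000 bp. Pou5f1, the gene of Oct4 itself, was among the 19, with highest fold enrichments over input of 10.4 and 13.3 (WT replicates 1 and 2) and of 8.35 and 12.5 (Spen KO replicates 1 and 2). Spry2, an inhibitor of FGF signalling, had 7.50 and 6.97 (WT), then 6.85 and 5.32 (Spen KO). Lama5, a laminin chain of basement membranes, had 6.41 and 6.76 (WT), then 6.09 and 11.2 (Spen KO). Spry2, Lama5 and the members named next were chosen after their values were seen. The ranges of both genotypes overlapped at Pou5f1 and at Lama5, and at Spry2 both WT libraries were above both Spen KO libraries. Cdca3 and Usp5, Lphn1, Rnf44, Pdpn, Gm13145, Myst2 and Myst4 also belonged to the 19. Of the 11 pluripotency genes with a broad peak, listed below, only Pou5f1 had Oct4 in all 4 libraries. Trim28, Lin28a and Tdgf1 had it in none. Tbx3, Klf4 and Klf2 had it in WT replicate 1 alone, and Mycn and Sall1 in WT replicate 2 alone. Jarid2 had it in WT replicate 1 and Spen KO replicate 2. At Sox2 it was called in Spen KO replicates 1 and 2 but not in WT.

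The genes at broad peaks were read against lists of known roles. Of 21281 autosomal protein-coding genes, 1291 had a broad peak within 1000 bp of the TSS (6.07%), 12347 a narrower peak alone and 7643 none. The genes with a broad peak shared 956 peaks. Among the 13638 genes with a peak, 9.47% had a broad one. The median width of the widest peak per gene was 2747 bp over all genes with a peak. The lists were chosen with earlier results of these data known and were not tested as sets. Some genes stand on several lists, so the shares are not separate observations. Among broad pluripotency genes, Trim28 and Jarid2 also counted as chromatin regulators and Mycn as a cell cycle gene. Sox2 and Tbx3 also counted as developmental transcription factors.

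Pluripotency genes had a broad peak at 11 of 30 (36.7%, 21.9 to 54.5%), with a median width of 4500 bp among the 27 with a peak. The 11 were Trim28, Lin28a, Pou5f1, Tbx3, Jarid2, Tdgf1, Mycn, Sall1, Klf4, Klf2 and Sox2. All but Tbx3 had H3K27Ac in WT (90.9%, against 75.1% of all genes with a broad peak), and the median ratio of Spen KO to WT width was 0.89. Of the 27 pluripotency genes with any peak, 88.9% had H3K27Ac. The peak at Pou5f1 had 8499 bp in WT, with scores of 33.9 and 52.5, and 6699 bp in Spen KO, with scores of 30.7 and 37.5. Lin28a, an RNA-binding protein that blocks let-7 miRNA maturation, had 8993 bp in WT and 3 Spen KO peaks, the widest of 3365 bp. Klf2 and Tbx3 had the wider peak in Spen KO, 6496 against 5186 bp at Klf2 and 8197 against 7812 bp at Tbx3. The remaining members were narrower in Spen KO, with ratios of 0.77 at Jarid2 to 0.99 at Klf4. Nanog, at 4500 bp, and Utf1, at 3832 bp, fell below the limit.

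Cytosolic ribosomal proteins, which are small, very active genes, had a broad peak at 29 of 75 (38.7%, 28.5 to 50.0%). The widest peak had a median width of 4803 bp among the 74 with a peak. All 29 with a broad peak carried H3K27Ac, against 95.9% of the 74 with any peak and 75.1% of all genes with a broad peak. The Spen KO peaks of the 29 had a median ratio of 0.95, and 10 were wider than in WT. Among the widest were those at Rpl7a (11654 bp), Rps28 (10166 bp) and Rpl23a (9156 bp), in peaks that also held neighbouring genes such as Surf1 and Surf2 at Rpl7a. The Spen KO widths were 6990, 4790 and 9029 bp in the same order. Their scattered pseudogenes can share reads with these genes.

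Chromatin regulators had broad peaks at 12 of 56 (21.4%, 12.7 to 33.8%). H3K27Ac lay at 11 of the 12 (91.7%, against 75.1% of all genes with a broad peak) and at 74.5% of the chromatin regulators with any peak. Among the 12 were Ring1, a subunit of Polycomb repressive complex 1 (12272 bp, in a peak with Rxrb and Slc39a7), Kdm6b, an H3K27 demethylase (11067 bp), and Dnmt1, the maintenance DNA methyltransferase (10929 bp). Spen KO had its widest peak there at 4321, 7995 and 7377 bp. Cell cycle and growth control genes had 8 of 40 (20%, 10.5 to 34.8%). These included E2f4 (8485 bp, in a peak with Exoc3l) and the cyclins Ccnd1 (7924 bp) and Ccnd2 (7267 bp). At Ccnd1 and Ccnd2, Spen KO had 3 peaks each, the widest of 3264 and 3320 bp.

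Developmental transcription factors, which are mostly silent but primed in mESCs, had 17 of 212 (8.02%, 5.07 to 12.5%), which was 8.76% of those with a peak and below the 9.47% of all genes with a peak. Of the 17, 6 carried H3K27Ac (35.3%), where 75.1% of all genes with a broad peak did. The median Spen KO ratio was 0.61, against 0.73 over all genes with a broad peak. Six3, a factor of forebrain and eye development, had 7355 bp (WT) and 1450 bp (Spen KO), and Foxp4 7936 bp and 4291 bp. Gbx2 had 7337 bp and 4095 bp, and Gata6, a factor of primitive endoderm and the 1 broad gene of the 5 endoderm markers, had 5495 bp and 1975 bp. Tbx3 and Zic2 were the 2 of the 17 with a wider Spen KO peak. Signalling genes had 12 of 143 (8.39%, 4.87 to 14.1%), led by Smad7, an inhibitor of TGF-beta signalling (13902 bp). Fgfr2 (8113 bp), the Wnt receptor Fzd7 (7434 bp) and Fgf4 (7259 bp) came next. The peak counted for Fgfr2 was also that of Ctbp2 and held 1 TSS, so it cannot be assigned to Fgfr2 alone. Of the 12, 9 carried H3K27Ac (75%), close to the 75.1% of all genes with a broad peak. Of the signalling genes with a peak, 9.16% had a broad one.

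The remaining lists had shares between 0 and 7.93%. Zinc finger genes named Zfp had 28 of 353 (7.93%, or 9.49% of those with a peak) and imprinted genes 3 of 47 (6.38%), at Dio3, Gnas and Cd81. Germline genes had 1 of 31, at Msh4 in a peak shared with Rabggtb. Liver and muscle genes had 1 of 32, at Mylpf in a peak shared with Sept1. Each of these 2 peaks held 1 TSS, so neither can be assigned to the listed gene alone. Replication-dependent histone genes had 2 of 65, Hist1h2af and Hist1h3g, in 1 peak of 5014 bp that was 7313 bp wide in Spen KO, although all 65 had a peak. Olfactory receptor genes had 0 of 1081 and fibroblast genes 0 of 16.

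**Figure D3:**
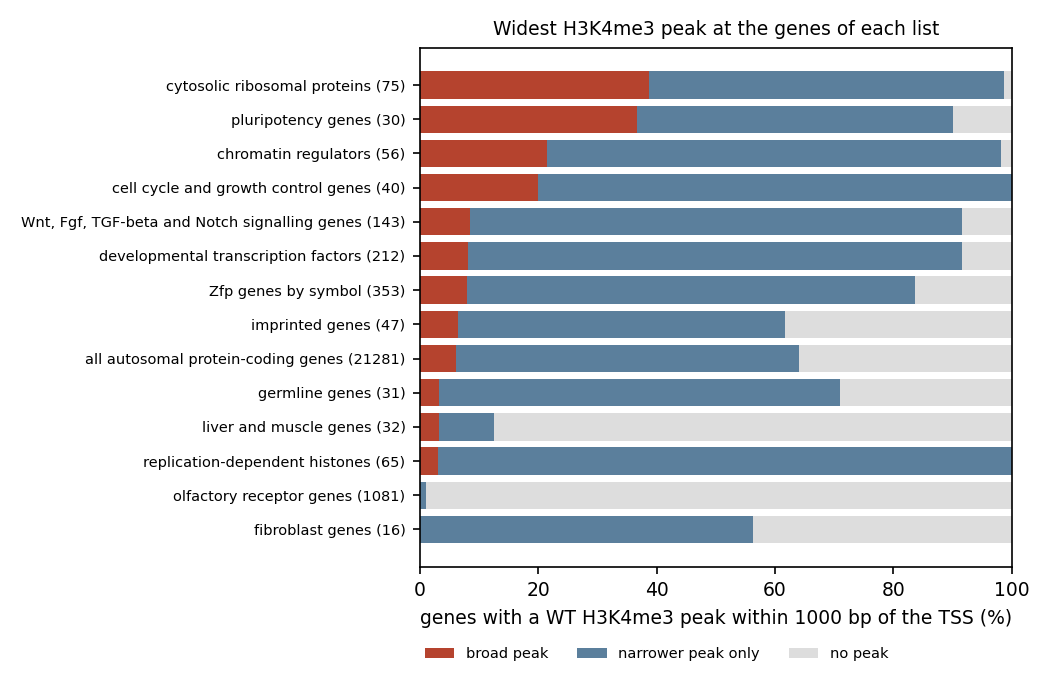
Genes of each list (number in brackets) by their widest WT H3K4me3 peak within 1000 bp of the TSS, as a share of the list (x axis, %): broad, narrower only or none. Ribosomal protein and pluripotency genes have the largest broad parts, 38.7% and 36.7%, against 6.07% of all autosomal protein-coding genes.

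The comparison with Spen KO asked whether broad peaks were still present and as wide. All but 1 of the 1125 overlapped a Spen KO H3K4me3 peak. The share absent was 0.0889% (0.0157 to 0.502%), against 24.4% (23.9 to 24.9%) of narrower and 23.6% of all autosomal peaks, a difference of -24.3 points (-24.8 to -23.7) with this direction on 19 of 19 autosomes. Against narrower peaks of higher score the difference was -0.059 points (-0.18 to 0.36), which includes 0. By width class, 53.2% of peaks under 1000 bp were absent, but 0.81% at 3000 to 3999 bp and 0.42% at 4000 to 4999 bp. Presence in Spen KO was thus not particular to broad peaks. The absent member lay at chr17:46753840-46760696 (6857 bp) over Gm16736 and Ptk7, a pseudokinase of Wnt and planar polarity signalling. Its scores of 17.4 and 21.6 were low among broad peaks, at a percentile of 40.8, and it had 2 H3K27Ac peaks in WT and 0 in Spen KO.

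Spen KO peaks at the broad regions were shorter and more often split. The widest overlapping Spen KO peak had a median of 0.73 (0.71 to 0.75, n = 1124) times the WT width, with quartiles of 0.54 and 0.91, and a median width of 4435 bp. For narrower peaks the median ratio was 0.84 (0.84 to 0.85). The group was chosen on WT width, which alone favours ratios below 1. The mirror comparison is therefore given beside it. The 507 Spen KO peaks of 5000 bp or more had a WT peak with a median of 1.02 (1.01 to 1.03) times their width. For Spen KO peaks under 5000 bp that met a WT peak, this median was 1.24 (1.24 to 1.25). Of the 507, 0 were absent from WT, and 408 (80.5%, 76.8 to 83.7%) met a broad WT peak. In the other direction 411 broad WT peaks (36.5%, 33.8 to 39.4%) met a Spen KO peak of 5000 bp or more, against 1.98% of all autosomal peaks. With as many of the widest Spen KO peaks as there were broad WT peaks, the share was 58.5% (55.6 to 61.3%).

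There were 620 broad peaks with 1 Spen KO peak, 382 with 2, 101 with 3 and 21 with 4 or more, up to 15 over a single 5S rRNA peak. Thus 504 (44.8%, 41.9 to 47.7%) were split in Spen KO, against 4.34% of narrower and 5.7% of all autosomal peaks. In the mirror, 126 of the 507 broad Spen KO peaks (24.9%) lay over 2 or more WT peaks. The mirror share at Spen KO peaks under 5000 bp was not computed, and the part of the choice by width in the splitting was not tested. When the widths of all overlapping Spen KO peaks were summed, the median ratio was 0.87 (0.85 to 0.88) at broad and 0.86 (0.85 to 0.86) at narrower peaks, so the groups differed in the widest peak and in the number of peaks but had overlapping intervals of the summed width. A median of 85.5% (84.5 to 86.7%) of the bases of a broad peak lay in a Spen KO peak. With peaks up to 1000 bp apart merged in both lists, the median ratio of the widest peak was 0.79 (0.77 to 0.81).

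In rank, the broad regions were also high in the Spen KO list. Their widest Spen KO peaks had a median score percentile of 80.9 (79.6 to 81.9) and width percentile of 97.3 in the Spen KO list, against 55.5 and 55.3 for the counterparts of narrower peaks. The scores of these Spen KO peaks had a median of 45.9 in replicate 1 and 26.7 in replicate 2, so the Spen KO libraries differed from each other more than the WT libraries did (40.7 and 43.5). The part of this difference in the shorter and split peaks was not tested, and a change in mark and a difference in library quality cannot be told apart with 1 clone.

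**Figure D4:**
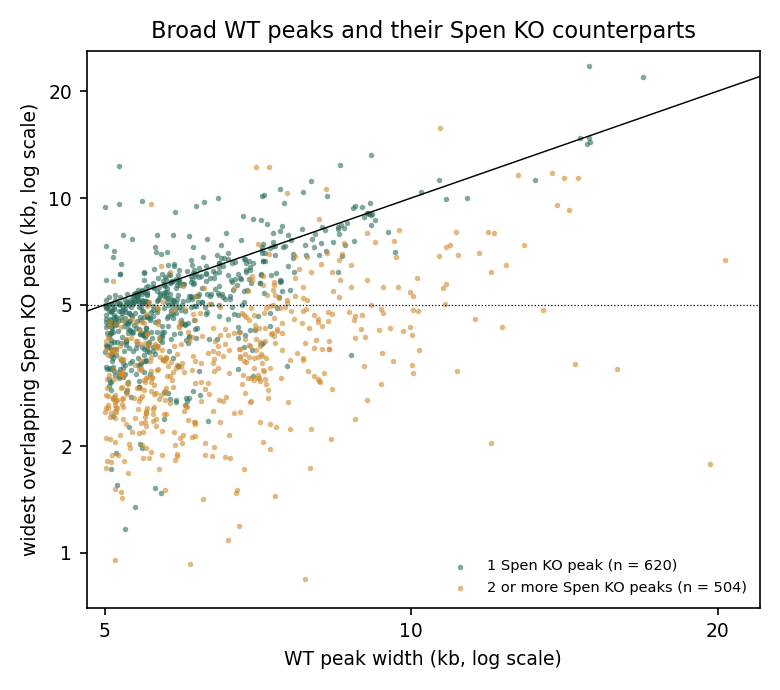
Width of each of 1124 broad WT peaks (x axis, kb) against the widest overlapping Spen KO peak (y axis, kb), both on log scales, coloured by the number of Spen KO peaks. Most points lie below the diagonal line of equal width, and 411 lie on or above the dotted line at 5 kb.

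The 6 lowest ratios were those of a 5S peak (0.091) and of 5 peaks at genes, 3 of which had no WT H3K27Ac. Ndufa4l2, a mitochondrial protein induced in low oxygen, had a WT peak of 7870 bp, with scores of 14.1 and 19.04, and 2 Spen KO peaks, the wider of 844 bp (ratio 0.11). Ebf2, a factor of neuronal and fat cell development, had 6057 bp and 929 bp (0.15). Fkbp9, a prolyl isomerase, had 6611 bp and 1089 bp (0.16), with 2 H3K27Ac peaks in WT and 0 in Spen KO. The shared peak of Atp6v0b, B4galt2 and Dph2 had 11990 bp and 2046 bp (0.17). The peak over Dnmt3l, a cofactor of de novo DNA methylation, had 6776 bp and 1194 bp (0.18), with 3 and 1 H3K27Ac peaks.

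The 6 highest ratios fell on 5 Spen KO peaks, since a pair of members met the same one. A region on chromosome 14 with no annotated gene, chr14:22300272-22305437, had 5166 bp (WT) and 12310 bp (Spen KO), a ratio of 2.38. Git1, a scaffold and Arf regulator, had 5002 bp and 9409 bp (1.88), although its WT scores of 79.9 and 78.9 were above the Spen KO scores of 45.6 and 22.8. A pair of WT peaks over Sall4, a pluripotency zinc finger factor, with 5164 bp and 5546 bp, met the same Spen KO peak of 9614 bp (1.86 and 1.73). The peaks over Rnf44 (5434 and 9835 bp, 1.81) and Klf9 (7033 and 12207 bp, 1.74) completed the 6. In all, 126 broad peaks (11.2%) were wider in Spen KO, and 220 (19.6%) met no Spen KO peak of 50% of their width or more among those still present. Of the narrower peaks, 15.4% were wider in Spen KO and 5.15% fell under 50% of the WT width.

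The limit of 5000 bp did not mark a step in these features. The share of WT peaks with H3K27Ac was 38.6% at 3000 to 3999 bp, 57.6% at 4000 to 4999 bp, 71.3% at 5000 to 5999 bp, 77.3% at 6000 to 7999 bp and 91.8% (84.7 to 95.8%) among the 98 peaks of 8000 to 9999 bp. It was 79.6% (66.4 to 88.5%) among the 49 peaks of 10000 bp or more, which include 5S peaks. The share with a TSS levelled off earlier, at 78.4% for 3000 to 3999 bp and 83.6% for 4000 to 4999 bp. The share split in Spen KO went from 23.7% at 4000 to 4999 bp through 36.1% and 49.3% to 63.3% at 8000 to 9999 bp, while the median summed ratio lay between 0.83 and 0.91 over these classes.

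**Figure D5:**
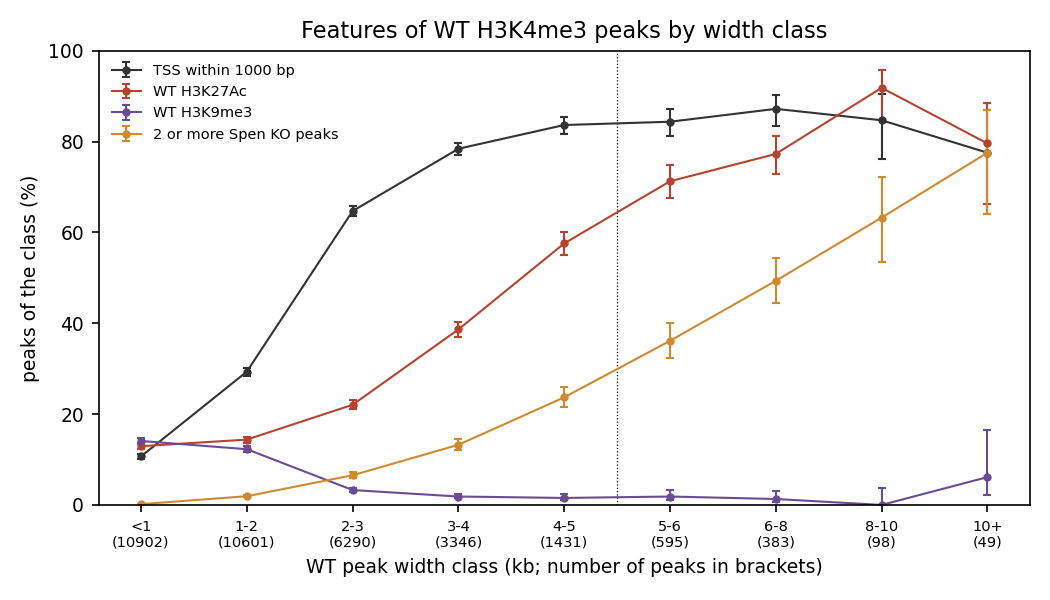
Share of autosomal WT H3K4me3 peaks (y axis, %) with each feature by width class (x axis, kb, number of peaks in brackets), with Wilson 95% intervals. The dotted line is the limit of 5 kb, and H3K27Ac goes from 57.6% in the class below it to 71.3% in the class above.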

How the data were processed

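ChIP-seq peak lists of H3K4me3, H3K27Ac, H3K9me3 and Oct4 from WT and Spen KO clone 2 mESCs were analysed. Per their methods, the authors used Bowtie2 to map read pairs to mm9 and Picard against duplicates, with MACS2 peak calls over input (versions not given in the sources used here). They describe an alignment of unique pairs and another with multi-mapping reads placed at random, and which gave the lists is not stated. For H3K4me3 and H3K27Ac the authors kept peaks that passed an IDR filter between libraries, and the deposited lists hold a score per library, whose MACS2 column is not stated, and the width. The H3K9me3 domains of joined 200 bp windows carry a deposited score. The methods name MACS2 for histone libraries in general, but the layout of these domains differs from the other lists, and how libraries were pooled is not stated. The Oct4 lists hold the fold enrichment over input per library, as deposited. Input signal and reads were not analysed here.

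Peaks were compared by an overlap of at least 1 bp in Python 3.11.15 with pandas 2.3.3, on GENCODE vM1 genes of the NCBIM37 sequence, which is mm9. A TSS counted within 1000 bp. Shares have Wilson, differences Newcombe and medians order-statistic 95% intervals, which cover counting error only, since neighbouring peaks are not independent. Oct4 was compared over libraries with exact permutation tests. Scores were ranked by the mean of both libraries. Overlap and interval functions were tested on simulated data. Named regions were the 12 widest, the 6 lowest and 6 highest width ratios, absent members, the 3 on each side of the limit, up to 4 per gene list and the 4 most covered by H3K9me3, and genes named beyond this rule were chosen after their values were seen. The members and lists were chosen with earlier results of these data known. Other limits, scores, overlaps and lists were tried as alternatives, of which the starts of all transcripts and the omission of 5S peaks were added after seeing the data. Some members that these rules name are not reported here.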

Additional observations from a re-analysis of the deposited data

How the results depend on the processing

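Of 98 alternative values of the 10 results, 81 were scored as kept, 10 moved, 2 lost an interval that excluded 0 and 5 reversed. For differences with an interval, kept meant the same direction and the same side of 0. The width ratio and the share with a broad Spen KO peak had to stay within the main interval, and the number of peaks within a fold range. The Oct4 results have no interval, so their 15 and 13 values were scored by direction alone, and smaller values of the same sign count as kept. The reversals all concerned the CpG-rich share of peak centres, which became -3.61 points with a limit of 6000 bp, -3.82 with merged peaks, -0.80 with IDR below 0.01, -25.8 against narrower peaks of higher score and -17.5 at TSS peaks, and the cause was not tested. The H3K9me3 difference was -0.76 points at TSS peaks and the difference in absence from Spen KO was -0.059 points against narrower peaks of higher score, both with intervals that include 0. The number of broad peaks was 2556 with a limit of 4000 bp, 530 with 6000 bp and 2060 with merged peaks. Under the same settings the median width ratio was 0.75, 0.68 and 0.79, and it was 0.87 with summed Spen KO widths. The share with a broad Spen KO peak was 41.4% with 4000 bp, 48.6% with merged peaks and 58.5% with as many of the widest Spen KO peaks.

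Leaving out 1 Oct4 library gave differences between broad and narrower peaks of 9.94 to 11.7 points and genotype differences of -5.02 to -0.49 points. With the replicate number as a replicate block (2 pairs, exact sign-flip test, smallest possible p = 0.5), the genotype difference was -2.76 points (p = 0.5). The block does not alter the difference, so this value was bound to stay the same. Without the peaks over the 5S cluster, an alternative chosen after seeing the data, the H3K27Ac difference was 56.1 points. Depth was unknown for every library, so an absent call cannot be told apart from one just under the calling threshold.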

Other observations

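Spen KO had 99 peaks of 5000 bp or more that met no broad WT peak, and 66 of them spanned 2 or more WT peaks. The widest was at Kdm5b, a demethylase of H3K4, with 12962 bp in Spen KO and 4 WT peaks of up to 3639 bp. Cnot1, the scaffold of the CCR4-NOT deadenylase, had 10133 bp and 4 WT peaks of up to 4791 bp, and Spen had 9011 bp and 2 WT peaks of up to 3910 bp. These genes were named after their values were seen, and 1 list per genotype allows no replicate test.

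On the X chromosome, 4 of 1015 WT peaks were 5000 bp or wider (0.394%, Wilson 95% interval 0.153 to 1.01%). They lay at Hcfc1, a chromatin cofactor (6044 bp in WT, 6707 bp in Spen KO), at Ddx3x, an RNA helicase (5343 bp and 5222 bp), and at 2 places without a protein-coding TSS. The peak starting at base 55282031 had 7514 bp and 5799 bp, and the one starting at base 166430857 had 5236 bp and 365 bp.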
